A study of Mus musculus with 192 samples.

Results

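The presynaptic vesicle machinery was followed here through 39 genes, chosen by symbol from GENCODE release vM21 among the 41128 genes of the deposited table. The libraries hold polyA-selected RNA from mouse hippocampus, 1 library per mouse, 192 in all. The mice were zQ175, a knock-in line in which the mouse Htt gene carries an expanded CAG repeat as a model of Huntington's disease, or wild type (WT). Within each genotype, mice received HTT-10150, a small interfering RNA (siRNA) against full-length HTT, or HTT-634.486, the siRNAs HTT-634 and HTT-486 given together against the short HTT1a transcript, or a non-targeting siRNA (NTC), or were untreated. In regimen 2[4]6 treatment came at 2 months of age and the hippocampus was taken at 6 months. In 6[4]10 the ages were 6 and 10 months, and in 2.6[8]10 treatment came at 2 and again at 6 months, with the tissue taken at 10 months. Crossing regimen, genotype and treatment gave 24 groups, each of 8 mice with both sexes in equal number. The knock-in is carried in the germline, so every cell of a zQ175 mouse has it. All 39 genes passed the filter on low counts in all 3 regimens, among 16575, 16374 and 15852 genes tested in 2[4]6, 6[4]10 and 2.6[8]10.

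At a presynaptic terminal, transmitter is loaded into vesicles by transporters, vesicles are held in clusters by synapsins, and a few are docked at the active zone by scaffold proteins. Munc13 and RIM proteins prime docked vesicles for release. Fusion is driven by the SNAREs, of which VAMP proteins sit on the vesicle and SNAP-25 and syntaxin-1 on the plasma membrane. It is triggered when calcium binds synaptotagmins, with complexins bound to the assembled SNAREs. In the hippocampus most terminals are glutamatergic and load vesicles with VGLUT1, the product of Slc17a7.

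For 29 of the 39 genes the RefSeq promoter table for GRCm38.p6 held an entry, with 40 windows in all. The sequences of 3 of them are printed here for the 250 bases before the RefSeq start of the transcript. That start lies inside the GENCODE gene, 30 bases from its start for Vamp1, 1 for Bsn and 86 for Syn1. Vamp1 and Bsn were chosen because they were lower in zQ175 mice in most comparisons below, and Syn1 because it was called in none. Capitals mark matches, on either strand, to 4 of the 5 letter strings searched. The strings were TTCAGCACC, the left part of the RE1 element bound by REST, TGACGTCA, the cyclic AMP response element, GCGCATGCGC for NRF1, GGGCGG, a GC box, and CACGTG, an E-box. The Vamp1 window is chr6:125215331-125215580 on the forward strand, the Bsn window chr9:108190384-108190633 on the reverse strand, and the Syn1 window chrX:20920919-20921168 on the reverse strand.
Vamp1: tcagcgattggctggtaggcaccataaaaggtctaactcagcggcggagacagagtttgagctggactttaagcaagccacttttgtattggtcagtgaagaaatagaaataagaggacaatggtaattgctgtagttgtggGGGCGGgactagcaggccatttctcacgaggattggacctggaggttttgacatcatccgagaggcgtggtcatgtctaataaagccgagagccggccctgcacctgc
Bsn: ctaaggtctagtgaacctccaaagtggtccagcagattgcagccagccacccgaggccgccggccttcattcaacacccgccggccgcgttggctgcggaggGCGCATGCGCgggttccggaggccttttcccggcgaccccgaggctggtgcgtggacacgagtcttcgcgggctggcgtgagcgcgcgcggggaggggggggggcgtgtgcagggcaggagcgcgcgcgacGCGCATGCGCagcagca
Syn1: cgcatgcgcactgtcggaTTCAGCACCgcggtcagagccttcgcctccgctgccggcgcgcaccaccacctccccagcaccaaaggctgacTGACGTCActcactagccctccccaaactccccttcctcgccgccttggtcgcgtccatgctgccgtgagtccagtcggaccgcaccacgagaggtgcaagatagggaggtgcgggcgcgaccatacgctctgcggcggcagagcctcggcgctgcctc

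The Vamp1 window held a GC box 108 bases before the RefSeq start. The Bsn window held the NRF1 string in 2 places, the nearer 17 bases before that start. The Syn1 window held both the left part of RE1 and the cyclic AMP response element. Among all 32851 windows of that length in the table, the GC box was present in 32.74%, the E-box in 6.02%, the cyclic AMP response element in 1.55%, the NRF1 string in 0.78% and the left part of RE1 in 0.3%. Among the 29 genes with an entry, 23 had a GC box in at least 1 window and 4 an E-box (Cplx3, Sv2b, Syt6 and Unc13b). Counted by window, 26 of their 40 windows held a GC box and 5 an E-box. The other 3 strings were each found in 1 gene, which is printed above. Such matches describe the letters in the window and nothing more.

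One library stood apart from its label and is named before any result. In the library of WT mouse female_1 given HTT-10150 in 2.6[8]10, the striatal genes Drd1, Adora2a and Ppp1r1b stood at 285, 515 and 2899 CPM (the standard depth-scaled count, with totals adjusted by TMM), against 1.87 to 13.7, 0.897 to 18.6 and 38.2 to 170 CPM in all other libraries. Prox1, a marker of dentate granule cells, stood at 32.4 CPM there, and Fibcd1, a marker of CA1 pyramidal cells, at 19.3 CPM. In all other libraries Prox1 ranged from 102.2 to 196 CPM and Fibcd1 from 80.3 to 219 CPM, so both hippocampal markers were well expressed there. The vesicle genes were also displaced in the single library. Of the 39, 19 were below and 9 above the range of the other 63 libraries of the regimen, or 71.8%, against 40.4% of all 15852 genes tested. Slc17a7 stood at 29.1 CPM in it, against 1284 to 1544 CPM in the other 7 mice of its group. Syt6, a synaptotagmin known for a part in the acrosome reaction of sperm, stood at 154.3 CPM against 3.95 to 9.53 CPM, and Unc13c, which encodes the priming factor Munc13-3, at 248 CPM against 14.8 to 33.5 CPM. Counts of called members for the comparisons within 2.6[8]10 are therefore given with and without this library. Genotype by sex was tested in untreated and NTC mice, so the library has no part in it.

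**Figure D1:**
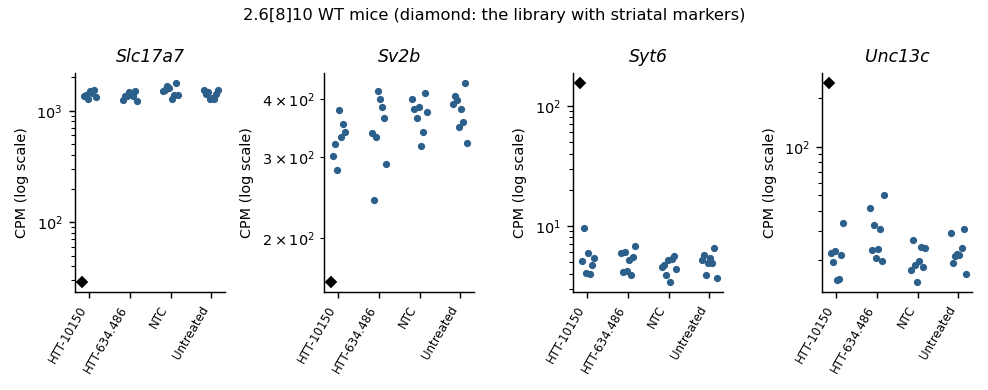
Levels in CPM, on a log scale, of Slc17a7, Sv2b, Syt6 and Unc13c in each WT mouse of 2.6[8]10 by treatment, with the library that carries striatal markers drawn as a diamond. Slc17a7 is at 29.1 CPM and Syt6 at 154.3 CPM in that library, far from the other 7 mice given HTT-10150.

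Library totals ranged from 8441632 to 55955529 counts in 2[4]6, from 13376471 to 41269383 in 6[4]10 and from 12999992 to 65748954 in 2.6[8]10. In 3 libraries sex-linked transcripts did not match the labelled sex. The 2 of zQ175 mice given HTT-10150 in 6[4]10 had the transcripts of the other sex. The WT NTC library female_2 of 2.6[8]10 had 0.687 CPM of Xist, against 372 CPM or more in the females that matched, and 0.61 CPM of summed Y-linked transcripts, which lay within the range of those females. The siRNA target was checked first. Htt in mice given HTT-10150 stood at 41.6% to 74.6% of the NTC level over the 6 groups, highest in zQ175 mice of 2[4]6. The lowering was called by edgeR in 5 of the 6, and not in WT mice of 6[4]10 (-0.55, SE 0.14, adjusted p = 0.207), where the lowest mouse given HTT-10150 had 66.8 CPM and the highest lay within the range of the NTC mice, 152.4 to 186.1 CPM. With HTT-634.486 it stood at 95.6% to 107.1% of NTC over the 6 groups, and these gene-level counts do not separate HTT1a.

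The machinery spanned a wide range of levels. Over all libraries but the one named above, Cplx2, which encodes complexin-2, was highest at 334 CPM per kilobase of annotated exon (CPM/kb), followed by Syp (synaptophysin) at 277, Slc17a7 at 236.5, Snap25 and Vamp2 at 235 each and Cplx1 at 225 CPM/kb. Rab3a, a vesicle-bound small GTPase that RIM proteins bind, led the active zone and priming group at 188 CPM/kb. Syt11, a synaptotagmin that does not bind calcium, led the calcium sensor family at 172.3 CPM/kb, with Syt1, the main sensor for fast release, at 158.5 CPM/kb and not separated from it by their SDs. Syn1 was the highest synapsin at 140 CPM/kb. At the other end stood Syt6 at 0.875, Sv2c at 0.830 and Syn3 at 0.655 CPM/kb. Of the 38 neighbouring pairs in this order, 9 were apart by more than their SDs added, among them Cplx2 and Syp. Snap25, Vamp2 and Slc17a7 were not separated from each other.

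**Figure D2:**
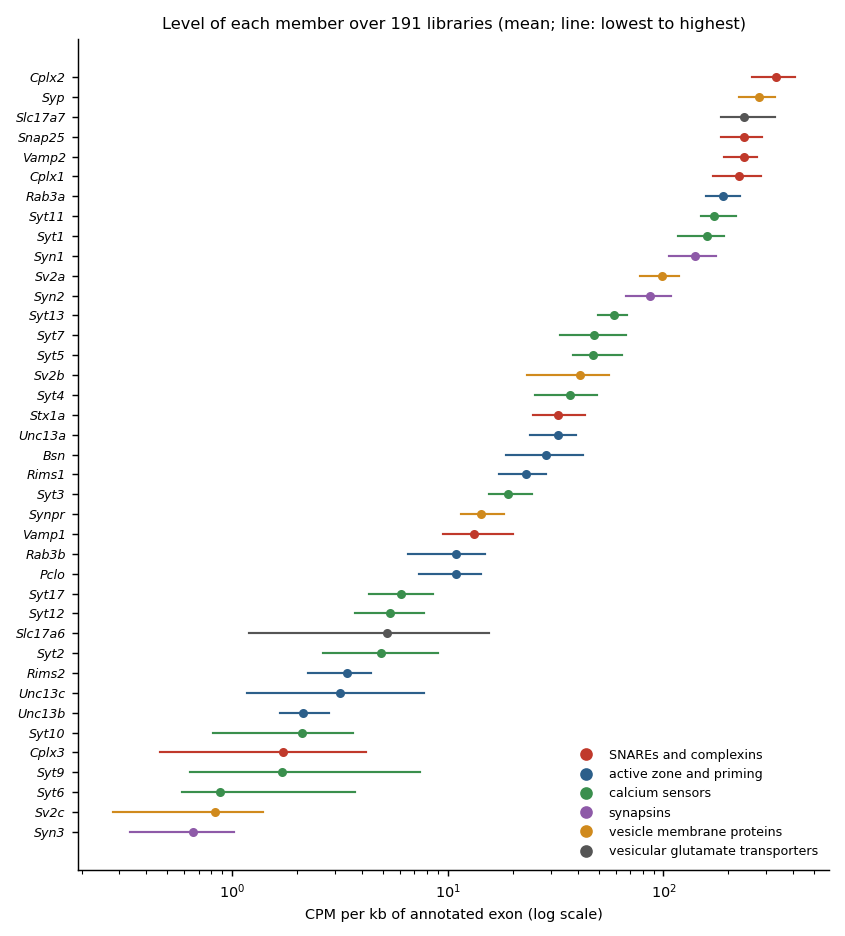
Mean level of each of the 39 genes in CPM per kilobase of exon, on a log scale, over all libraries but the one with striatal markers, with a line for the lowest to the highest library and the colour giving the role. Cplx2 is highest at 334 CPM/kb and Syn3 lowest at 0.655 CPM/kb.

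Most members overlap no well-expressed gene on the other strand, and whether strand was used in counting is not given in the sources used here. The exceptions by level are Syn3, which averaged 8.06 CPM and overlaps Timp3 at 85.7 CPM, Syn1, which overlaps Araf at 144.2 CPM, and Unc13a, which overlaps Colgalt1 at 49.1 CPM. Reads of such partners cannot be told apart without strand, and values of Syn3 are uncertain for that reason.

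The genotype comparison asks how zQ175 hippocampus differs from WT. By the quasi-likelihood test of edgeR, a gene counted as called when its p, adjusted by Benjamini and Hochberg over all genes tested in the regimen, was under 0.05. In untreated mice of 2[4]6, 4 of the 39 genes were called, all lower in zQ175: Syt12, Snap25, Syt7 and Vamp1. The background there was 4.11% of all genes. In 6[4]10, 9 genes were called, all lower, against 11.5% of all genes: Syt7, Cplx2, Vamp1, Slc17a7, Snap25, Sv2b, Bsn, Unc13b and Syt1. In 2.6[8]10, 6 were called, all lower, against 11% of all genes: Syt7, Vamp1, Cplx2, Syt12, Snap25 and Bsn. Without the library with striatal markers, which is in none of the untreated groups but enters the estimate of spread, 10 were called there against 16.1% of all genes. Those added without the library were Slc17a7, Unc13b and Sv2b, lower, and Rims2, higher. The shares of the 39 genes called were 10.3%, 23.1% and 15.4% with all libraries, in each regimen above the background. These shares rest on few genes, were not tested against the background, and describe members chosen with earlier results of these data known. With the mice of a replicate number left out, the counts ranged from 3 to 5 in 2[4]6, 6 to 10 in 6[4]10 and 3 to 4 in 2.6[8]10. The share of all genes called in those fits is not given here, so whether the members stayed above it was not tested. The median log2 change of the 39 genes was -0.03, -0.07 and -0.06 in 2[4]6, 6[4]10 and 2.6[8]10, beside 0.00, 0.01 and 0.00 over all genes tested. How the calls over all genes split into lower and higher is not given here.

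Synaptotagmins are membrane proteins of vesicles and other secretory organelles, many of which sense calcium. Syt7 (ENSMUSG00000024743, chr19:10389090-10453180, forward strand, GRCm38) encodes a slow, high-affinity sensor with parts in facilitation, asynchronous release and vesicle replenishment. In 6[4]10 its lowest, median and highest level, the order used for every set of 3 CPM values below, was 272, 298 and 311 CPM in untreated zQ175 mice, against 352, 393 and 412 CPM in untreated WT mice. The values of 2.6[8]10 were 282, 299.8 and 321 CPM in zQ175 mice and 370.4, 416 and 495 CPM in WT mice. At both, all 8 zQ175 mice lay below all 8 WT mice. The zQ175 mice of 2[4]6 had 285, 332 and 364 CPM, against 360.2, 385 and 458 CPM in WT mice, and 7 of 8 zQ175 mice lay below every WT mouse. The log2 change was -0.27 (SE 0.06, adjusted p = 9.31e-04) in 2[4]6, -0.39 (SE 0.05, adjusted p = 1.16e-07) in 6[4]10 and -0.49 (SE 0.08, adjusted p = 2.83e-05) in 2.6[8]10, by edgeR.

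Syt12 (ENSMUSG00000049303, chr19:4445908-4477447, reverse strand) encodes a synaptotagmin that does not bind calcium and is known from work in mice for a part in long-term plasticity at mossy fibre terminals. It had 23.7, 25.2 and 27.03 CPM (lowest, median, highest) in untreated zQ175 mice of 2[4]6, against 29.3, 32.2 and 33.8 CPM in WT mice, with no overlap. No overlap was seen in 2.6[8]10 either, with 23.6, 29.4 and 31.97 CPM in zQ175 mice and 33.9, 34.7 and 42.1 CPM in WT mice. In 6[4]10 the groups overlapped, at 23.6, 31.0 and 33.9 CPM in zQ175 mice and 31.4, 32.98 and 36.7 CPM in WT mice, and the gene was not called there. Its log2 change was -0.34 (SE 0.05, adjusted p = 8.12e-06, edgeR) in 2[4]6 and -0.32 (SE 0.09, adjusted p = 0.009) in 2.6[8]10.

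Of the 13 synaptotagmins, Syt1 was the other one called in untreated mice, by -0.15 (SE 0.05, adjusted p = 0.0326, edgeR) in 6[4]10. Syt11, the highest of the family per kilobase, averaged 919 ± 35.5 CPM in zQ175 and 929 ± 24.7 CPM in WT untreated mice of 6[4]10 (SD, n = 8 each), a difference within the spread between mice.

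The SNAREs and complexins form the fusion apparatus. Snap25 (ENSMUSG00000027273, chr2:136713453-136782428, forward strand) encodes the plasma membrane SNARE SNAP-25. Untreated zQ175 mice of 2[4]6 had 1432, 1480.3 and 1617 CPM and WT mice 1539, 1767 and 1841 CPM, with 7 of 8 zQ175 mice below every WT mouse. In mice of 6[4]10 it was 1339, 1431 and 1557 CPM in zQ175 mice and 1500.2, 1657 and 1749.7 CPM in WT mice, again with 7 of 8 below. At 2.6[8]10 zQ175 mice had 1390.0, 1428 and 1559 CPM and WT mice 1415, 1647 and 1828 CPM, and 3 of 8 lay below every WT mouse. The log2 change by edgeR was -0.23 (SE 0.04, adjusted p = 1.61e-04), -0.19 (SE 0.04, adjusted p = 0.0011) and -0.17 (SE 0.05, adjusted p = 0.0209) in 2[4]6, 6[4]10 and 2.6[8]10.

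Vamp1 (ENSMUSG00000030337, chr6:125215551-125245964, forward strand), whose promoter is printed above, encodes the vesicle SNARE synaptobrevin-1. Untreated zQ175 mice of 6[4]10 had 107.3, 124.45 and 133.1 CPM, against 138, 155 and 179 CPM in WT mice, with all 8 below. The zQ175 mice of 2.6[8]10 had 96.3, 119.7 and 139.6 CPM, against 133.2, 150.4 and 171 CPM in WT mice, with 7 of 8 below. In 2[4]6, at 106.9, 123 and 152.8 CPM in zQ175 mice and 124.4, 145.8 and 203 CPM in WT mice, the groups overlapped more, with 4 of 8 below. The log2 change was -0.30 (SE 0.08, adjusted p = 0.0128), -0.34 (SE 0.07, adjusted p = 3.68e-04) and -0.33 (SE 0.08, adjusted p = 0.00265) in 2[4]6, 6[4]10 and 2.6[8]10, by edgeR.

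Cplx2 (ENSMUSG00000025867, chr13:54371349-54383917, forward strand) varied in its genotype difference between regimens, which are separate sets of mice. The zQ175 mice of 6[4]10 had 1384, 1517 and 1632 CPM and WT mice 1692, 1731 and 1818 CPM, with no overlap. Likewise zQ175 mice of 2.6[8]10 had 1272, 1447 and 1662 CPM and WT mice 1545, 1731 and 1822 CPM, with 7 of 8 below every WT mouse. Groups of 2[4]6 overlapped widely, at 1388, 1608 and 1675 CPM in zQ175 mice and 1501, 1599 and 1832 CPM in WT mice. It was called by edgeR in 6[4]10 (-0.20, SE 0.04, adjusted p = 3.65e-04) and 2.6[8]10 (-0.22, SE 0.05, adjusted p = 0.00383). No other member of the 7 SNAREs and complexins was called in untreated mice: Stx1a, Vamp2, Cplx1 and Cplx3 were not.

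Among the 9 active zone and priming genes, Bsn (ENSMUSG00000032589, chr9:108096022-108190384, reverse strand) encodes bassoon, a large scaffold of the active zone. Untreated zQ175 mice of 6[4]10 had 394, 429.7 and 506 CPM, against 474, 509.6 and 674 CPM in WT mice. Those of 2.6[8]10 had 403, 419 and 459.5 CPM, against 447, 499 and 560.2 CPM in WT mice. In each of these, 6 of 8 zQ175 mice lay below every WT mouse. The values of 2[4]6 were 393, 432 and 524 CPM in zQ175 mice and 418, 500.2 and 554 CPM in WT mice, with 2 of 8 below and no call. The log2 change by edgeR was -0.29 (SE 0.09, adjusted p = 0.0157) in 6[4]10 and -0.24 (SE 0.08, adjusted p = 0.0494) in 2.6[8]10. Unc13b, which encodes the priming factor Munc13-2, was called in 6[4]10 (-0.16, SE 0.05, adjusted p = 0.0201). Rab3a averaged 414 ± 17.4 CPM in zQ175 and 406 ± 24.7 CPM in WT untreated mice of 6[4]10 (SD, n = 8 each).

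**Figure D3:**
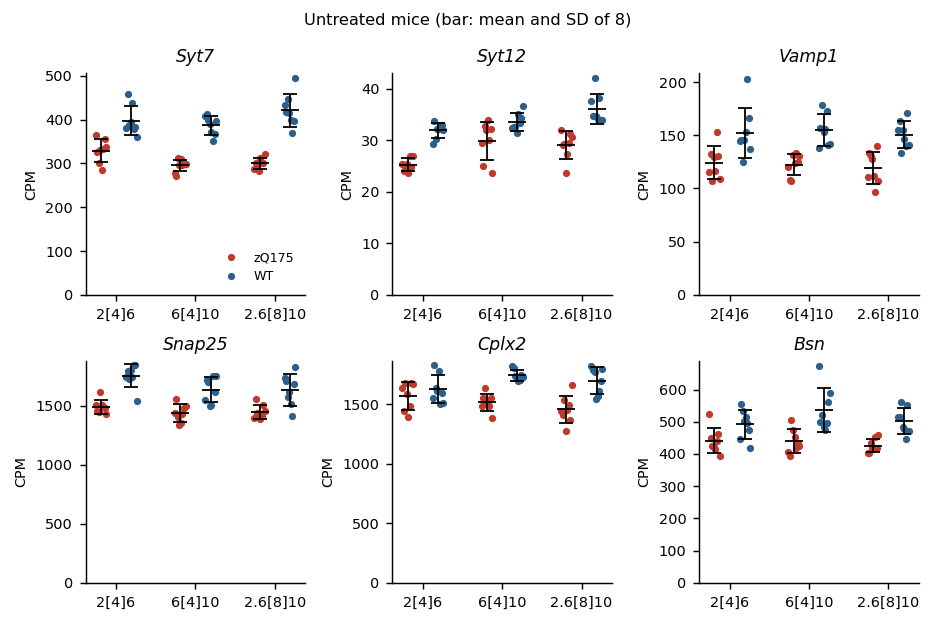
Level in CPM of Syt7, Syt12, Vamp1, Snap25, Cplx2 and Bsn in each untreated mouse by regimen, zQ175 left of WT, with bars for the mean and SD of 8 mice. The zQ175 mice of 6[4]10 lie below every WT mouse for Syt7, Vamp1 and Cplx2, and those of 2[4]6 for Syt12.

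Among the vesicle membrane proteins, Sv2b, which encodes a vesicle glycoprotein of unsettled transport function, was called in untreated mice of 6[4]10 (-0.38, SE 0.09, adjusted p = 0.0026, edgeR). All 8 zQ175 mice lay below every WT mouse there, at 286 to 337 CPM in zQ175 mice and 371 to 452 CPM in WT mice. Syp, the most abundant, averaged 1417 ± 56.4 CPM in zQ175 and 1457 ± 54.3 CPM in WT mice of that regimen (SD, n = 8 each), within the spread. Slc17a7 had 1133, 1222 and 1291 CPM in zQ175 mice, against 1279, 1427 and 1495 CPM in WT mice, with 6 of 8 below every WT mouse. It was called at -0.21 (SE 0.05, adjusted p = 8.67e-04, edgeR). Slc17a6, the other vesicular glutamate transporter, was not called in any of the regimens.

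The synapsins, which tether vesicles in reserve, included no call in untreated mice. Syn1 averaged 494 ± 29.8 CPM in zQ175 and 494 ± 35.4 CPM in WT untreated mice of 6[4]10 (SD, n = 8 each).

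Each regimen also compared the genotypes within each siRNA treatment, so that the 4 treatments of a regimen compare separate mice. Under NTC, 9 genes were called in 2[4]6 against 5.18% of all genes, 14 in 6[4]10 against 14.6%, and 8 in 2.6[8]10 against 10.3%. The last was 10, against 15%, without the library with striatal markers. Under HTT-10150, 6 were called in 2[4]6 against 6.46%, 11 in 6[4]10 against 15.1%, and 5 in 2.6[8]10 against 8.95%. The last was again 5, against 7.87%, without that library, but not the same genes: Syt6 and Cplx2 were no longer called, and Vamp1 and Snap25 were. Under HTT-634.486, 3 were called in 2[4]6 against 2.13%, 12 in 6[4]10 against 17%, and 2 in 2.6[8]10 against 1.93%, or 4 against 4.43% without the library.

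Averaged over the 4 treatments, which gives 32 mice a genotype, 12 genes were called in 2[4]6 against 21.3% of all genes, 19 in 6[4]10 against 41.1%, and 13 in 2.6[8]10 against 32%. The last was 17 against 35.4% without the library. The shares of the 39 genes were 30.8%, 48.7% and 33.3% with all libraries, so in 2.6[8]10 the share was close to the background. Lower calls outnumbered higher ones, at 11 to 1, 17 to 2 and 12 to 1, or 13 to 4 in 2.6[8]10 without the library. The split of the calls over all genes into lower and higher is not given here, so these counts have no background beside them. The higher ones were Syt17 in 2[4]6 (0.16, SE 0.04, adjusted p = 0.00141, edgeR), Unc13c and Sv2a in 6[4]10, and Sv2a in 2.6[8]10, where Unc13c, Rims2 and Syt4 were also called higher without the library.

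Over the 12 comparisons of separate mice, Syt7 was below 0 in all 12 and called in 11, with log2 changes of -0.49 to -0.11. Syt12 and Snap25 were below 0 in all 12 and called in 9 each, Vamp1 in 8, Cplx2 in 7 and Sv2b in 6. Bsn was below 0 in 11 and called in 7. These 7 genes, 17.9% of the members, were called lower in at least 6 comparisons, against 3.65% of the 15821 genes tested in all 12. The 6 that were below 0 throughout are 15.4% of the members, against 8.4% of all genes. Since the members were chosen with earlier results of these data known, these shares are a description and no test. The comparisons within a regimen also share an estimate of spread. Another 16 members were called in none of the 12. Only Syt10, Sv2a, Rims2 and Unc13c of the 39 were ever called higher. When the library with striatal markers was left out of the 2.6[8]10 fits, 8 members, or 20.5%, were called lower in at least 6 comparisons, against 4.19% of 15867 genes. They were the 7 above and Slc17a7. Below 0 throughout were then 8 members, or 20.5%, against 8.59% of all genes, and 16 were again called in none. Numbers in the library names, shared by a few libraries each and never by both genotypes, were also used as a random block in limma. By that fit Bsn in untreated mice of 2.6[8]10 (adjusted p = 0.0846) and Syt7 under HTT-10150 (adjusted p = 0.0819) and HTT-634.486 (adjusted p = 0.0537) in 2.6[8]10 were not called, nor were they by limma without the block (adjusted p of 0.0606, 0.0826 and 0.0603).

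**Figure D4:**
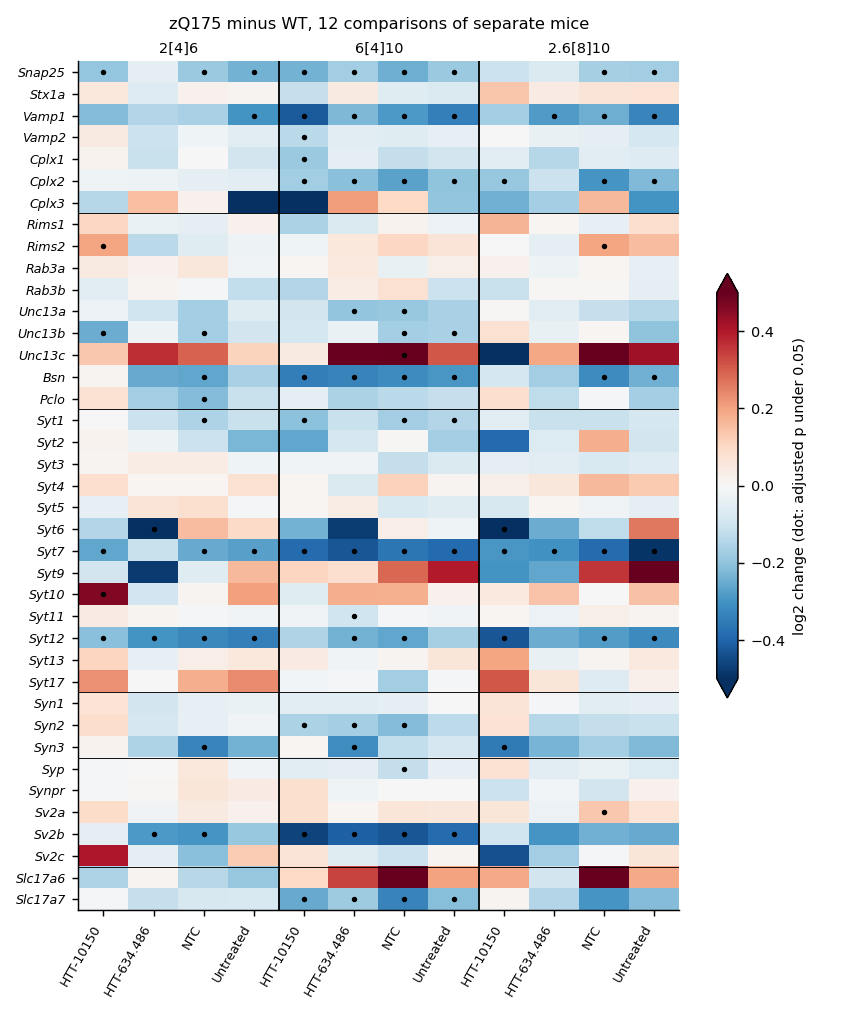
Log2 change, zQ175 minus WT, of each of the 39 genes (rows, grouped by role) in the 12 comparisons (columns, by regimen and treatment), with a dot at an adjusted p under 0.05 by edgeR. Syt7, Syt12, Snap25, Vamp1, Cplx2 and Sv2b are below 0 in all 12 columns, and 16 rows have no dot.

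Some markers of cell types were called in untreated zQ175 mice too. The shares over all genes were 4.11%, 11.5% and 11% in 2[4]6, 6[4]10 and 2.6[8]10. Without the library with striatal markers the last was 16.1%. In bulk tissue, fewer cells of a type and less RNA per cell cannot be told apart. Of 9 dentate granule cell markers, 3, 5 and 5 were called lower in untreated zQ175 mice of 2[4]6, 6[4]10 and 2.6[8]10, and 1 was called higher in 2[4]6. Their summed level was 620 to 780 CPM in zQ175 mice and 613 to 895 CPM in WT mice in 2[4]6, 492 to 665 against 688 to 834 CPM in 6[4]10, and 449 to 605 against 661 to 894 CPM in 2.6[8]10. Of 6 CA1 markers, 1, 2 and 2 were called lower, of 11 CA2 and CA3 markers 1, 4 and 3, and of 13 interneuron markers 5, 4 and 2. Of 10 pan-neuronal genes, 1, 4 and 2 were called lower, with Eno2 in each. Astrocyte markers moved as well, with Slc1a2 and S100b, whose directions are not given here, called in all 3 regimens. Of the 9 astrocyte markers, 3 were called lower and 1 higher in each regimen. Their summed level was 3988 to 4548 CPM in zQ175 mice and 4194 to 4856 CPM in WT mice in 2[4]6, 4034 to 4697 against 4688 to 4993 CPM in 6[4]10, and 3583 to 4143 against 4363 to 4988 CPM, with no overlap, in 2.6[8]10. Of 8 oligodendrocyte markers 1 was called lower in 2.6[8]10, of 14 thalamus and habenula markers 1 was called higher in 6[4]10, and of 8 striatal markers Penk was lower in 2[4]6 and 6[4]10. The lists for mossy cells, subiculum and deep cortex, choroid plexus, microglia and endothelium held no call with all libraries. Without the library with striatal markers, the lower calls of 2.6[8]10 were 7 for dentate granule cells, 3 each for CA1, for CA2 and CA3, for interneurons, for pan-neuronal genes and for astrocytes, and 1 each for mossy cells, subiculum and deep cortex, thalamus and habenula, striatum and oligodendrocytes. In that fit 1 pan-neuronal gene and 1 astrocyte marker were called higher. No gene of these lists was at 0 in an untreated library. Their part in the changes of the vesicle genes was not tested.

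A wider list of 63 other presynaptic genes, 62 of them tested, showed 2 higher and 2 lower in untreated zQ175 mice of 2[4]6, 3 and 9 in 6[4]10, and 2 and 9 in 2.6[8]10. These are 6.45%, 19.4% and 17.7% of the list, against 4.11%, 11.5% and 11% of all genes. In 2.6[8]10 without the library with striatal markers, 5 were higher and 13 lower, or 29% against 16.1%. The genes of this list named here were chosen after their values were seen. Otof, whose product otoferlin is a calcium sensor known from hair cells, was lower by edgeR at -0.83 (SE 0.15, adjusted p = 3.11e-04) in 2[4]6 and -1.29 (SE 0.15, adjusted p = 2.12e-09) in 6[4]10. Otof was also called in 2.6[8]10, with and without the library with striatal markers, and its change there is not given here. Napa, which encodes the SNARE-disassembly factor alpha-SNAP, was lower in all 3 regimens, at -0.20, -0.26 and -0.22. Prrt2, Erc2 and Nrxn3 were called lower in 6[4]10 and 2.6[8]10, and Tprgl higher in both.

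Differences of the genotype effect were tested next. Regimens are separate mice and libraries, so age cannot be told apart from other differences between them. Cplx2 was the only member whose effect, over untreated and NTC mice together, differed between regimens with all libraries. It was -0.24 in 6[4]10 and -0.05 in 2[4]6, a difference of -0.19 (SE 0.05, adjusted p = 0.0353, edgeR, against 0.92% of genes called). Between 2.6[8]10 and 2[4]6 the effects were -0.26 and -0.05, a difference of -0.21 (adjusted p = 0.0267, against 0.553%). Between 6[4]10 and 2.6[8]10, 0 members were called by edgeR, 0 at an unadjusted p under 0.05, and 0.018% of genes. In the fit without the library with striatal markers, 3 members differed between 6[4]10 and 2[4]6. That library belongs to neither of these regimens but enters the estimate of spread. The share of all genes called in that fit is not given here, so the count has no background beside it.

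Genotype by sex, tested over untreated and NTC mice together, gave 2 calls in 2.6[8]10, or 5.13% of the members against 5.52% of all genes, so the members did not stand above the background. Both are given as values. The level of Syt4, an activity-induced synaptotagmin, was 122, 152 and 173.9 CPM in female zQ175 mice, against 99.03, 122 and 138 CPM in female WT mice. Among males it was 101.9, 140.3 and 161.6 CPM in zQ175 mice and 109, 144.1 and 163.9 CPM in WT mice (n = 8 in each). Its genotype effect was 0.32 in females and -0.01 in males, a difference of 0.33 (SE 0.10, adjusted p = 0.0442, edgeR). Syt13, a synaptotagmin that does not bind calcium, had effects of 0.13 and -0.05, a difference of 0.18 (SE 0.05, adjusted p = 0.0434). With the WT NTC female whose sex-linked transcripts did not match left out, Syt13 was called (0.22, adjusted p = 0.00808) and Syt4 was not (0.30, adjusted p = 0.0592). In 2[4]6 and 6[4]10, 0 members were called by edgeR, with 6 and 5 at an unadjusted p under 0.05 and 0.00599% and 0.0847% of genes called.

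The siRNA comparisons ask what lowering Htt or HTT1a did to these genes. HTT-10150 against NTC in zQ175 mice of 2[4]6 gave 4 calls, all higher, against 3.51% of all genes: Pclo, Rims2, Rims1 and Syn3. Pclo, which encodes piccolo, a scaffold related to bassoon, had 236.97, 278 and 299 CPM in zQ175 mice given HTT-10150 and 194, 225 and 257 CPM in those given NTC, with 6 of 8 mice given HTT-10150 above every NTC mouse. The log2 change was 0.29 (SE 0.07, adjusted p = 0.0101, edgeR). Rims1 and Rims2 encode RIM scaffolds that recruit calcium channels and priming factors. Rims2 had 34.6, 38.3 and 44.2 CPM with HTT-10150 and 31.2, 33.3 and 34.3 CPM with NTC, with no overlap (0.25, SE 0.06, adjusted p = 0.0194). Rims1 had 173.7, 186.05 and 199 CPM with HTT-10150 and 154.4, 159.8 and 173.9 CPM with NTC, with 7 of 8 above (0.19, SE 0.05, adjusted p = 0.0225). Syn3 changed by 0.31 (SE 0.09, adjusted p = 0.0456), with the uncertainty given above.

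These 4 calls depended on which mice were included. In untreated zQ175 mice of 2[4]6, Pclo averaged 259.8 ± 31.8, Rims1 174.3 ± 9.54, Rims2 36.2 ± 2.72 and Syn3 7.98 ± 1.16 CPM (SD, n = 8), and the NTC means of Pclo, Rims1 and Rims2 were 223 ± 22.5, 163.7 ± 7.57 and 33.2 ± 1.15 CPM. Leaving out the mice numbered 1, or those numbered 4, of each group and sex left 0 of the calls. Fitting only the 16 libraries of both groups gave 3. The difference of the siRNA effect between the genotypes was called for none of them (adjusted p of 0.173 to 0.358, edgeR).

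Directly against HTT-634.486, HTT-10150 gave 11 calls in zQ175 mice of 2[4]6, against 11.5% of all genes. Of these, 10 were higher with HTT-10150 (Rims2, Pclo, Sv2b, Syn2, Rims1, Syt10, Sv2c, Sv2a, Syt13 and Syt17) and Snap25 was lower. Rims2 had 34.6, 38.3 and 44.2 CPM with HTT-10150 against 24.5, 33.4 and 40.5 CPM with HTT-634.486 (0.28, SE 0.06, adjusted p = 0.00219, edgeR). Pclo had 165, 221 and 261 CPM with HTT-634.486 (0.29, SE 0.07, adjusted p = 0.00272). Sv2b had 315, 366 and 432 CPM with HTT-10150 against 241.3, 309 and 391 CPM with HTT-634.486 (0.26, SE 0.06, adjusted p = 0.00452). Of these 3 genes, each had overlapping groups. The share called, 28.2%, became 0 calls when the 16 libraries of both groups were fitted alone, and ranged from 0 to 15 calls when mice of 1 number were left out.

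Markers of cell types were called in the same contrasts too, beside 3.51% of all genes against NTC and 11.5% against HTT-634.486. Of 7 endothelial markers, 6 were called higher with HTT-10150 against NTC and 6 against HTT-634.486, with summed levels of 168.3 to 211 CPM with HTT-10150, 101 to 162.8 CPM with HTT-634.486, 116 to 167 CPM with NTC and 157.7 to 187 CPM untreated. Of 8 oligodendrocyte markers, 7 were lower against HTT-634.486, at 5262 to 7420 CPM with HTT-10150 and 5677 to 11484 CPM with HTT-634.486. Of 7 microglial markers, 4 were higher and 1 lower against HTT-634.486, at 319.5 to 408 CPM with HTT-10150 and 324.5 to 359 CPM with HTT-634.486, and of 13 interneuron markers 4 were higher and 1 lower, at 1502 to 1751 CPM and 1418 to 1741 CPM. No gene of these lists was at 0. The median log2 change over all genes against NTC was -0.09 for genes with up to 2 kb of annotated exon, -0.03 for 2 to 4 kb, 0.01 for 4 to 8 kb and 0.06 above 8 kb. Pclo, Rims2 and Syn3 have 22.46, 10.39 and 12.28 kb of exon and Rims1 has 7.36 kb. Against HTT-634.486 the medians were -0.10, -0.03, 0.02 and 0.07. For NTC against untreated zQ175 mice of 2[4]6 they were 0.08, 0.03, -0.02 and -0.07. For zQ175 against WT under NTC, where 9 members were called, they were 0.05, 0.02, -0.01 and -0.04. For HTT-10150 against NTC in WT mice they were 0.02, 0.00, -0.01 and -0.02. The part of these in the calls was not tested.

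**Figure D5:**
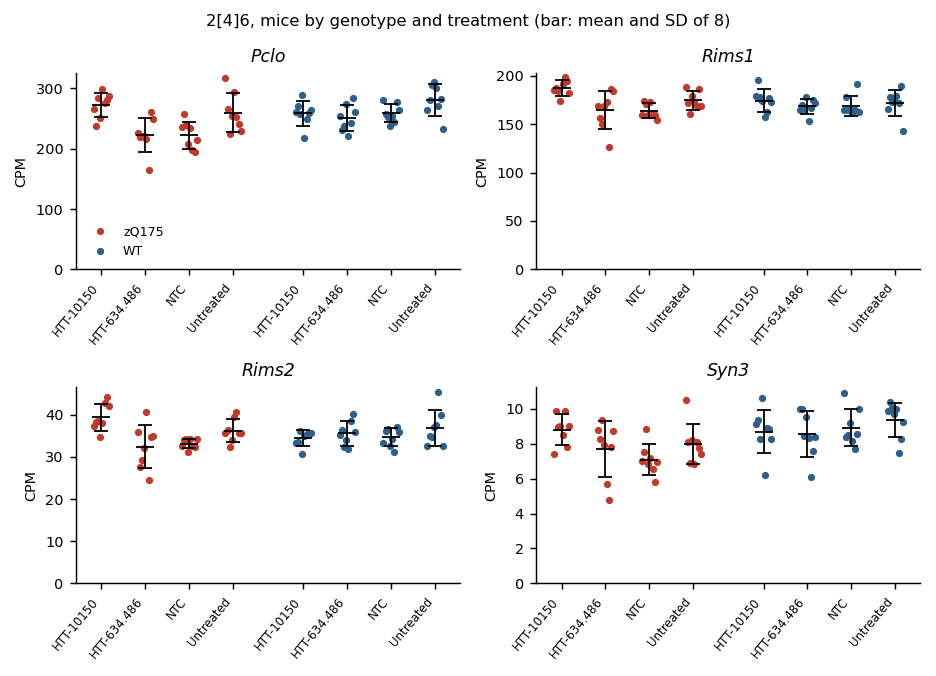
Level in CPM of Pclo, Rims1, Rims2 and Syn3 in each mouse of 2[4]6 by treatment, zQ175 left of WT, with bars for the mean and SD of 8 mice. In zQ175 mice the HTT-10150 group is higher than the NTC group, with Pclo at 273 ± 20.5 CPM against 223 ± 22.5 CPM, while the untreated mice average 259.8 CPM.

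In the other regimens HTT-10150 against NTC in zQ175 mice called 0 members by edgeR, with 0.0489% of genes called in 6[4]10 and 0.864% in 2.6[8]10. At an unadjusted p under 0.05 there were 3 and 4 members, and DESeq2 and limma called 0 in each. Without the library with striatal markers, Vamp1 (0.23, SE 0.06, adjusted p = 0.044) and Unc13b (0.19, SE 0.05, adjusted p = 0.0464) were called higher in 2.6[8]10, against 2.01% of genes. HTT-10150 against HTT-634.486 called 0 members in 6[4]10 and 2.6[8]10, with 4 and 3 at an unadjusted p under 0.05 and 0.116% and 0.208% of genes, and again 0 in 2.6[8]10 without the library, against 0.384%.

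HTT-634.486 against NTC in zQ175 mice called 0 members in 2[4]6 by edgeR, with 6 at an unadjusted p under 0.05, 0 by DESeq2 and 0.0302% of genes. In 6[4]10 it called Unc13b, at 42.6, 50.4 and 56.7 CPM with HTT-634.486 and 38.4, 43.7 and 44.3 CPM with NTC (0.21, SE 0.05, adjusted p = 0.0223), against 0.922% of genes. The groups overlapped, with 7 of 8 mice given HTT-634.486 above every NTC mouse. The call was lost when the 16 libraries of both were fitted alone. With HTT-10150, where Unc13b was not called, 7 of 8 also lay above the same NTC mice. In 2.6[8]10 it was 7 of 8 with each siRNA, and in 2[4]6 4 with HTT-634.486 and 2 with HTT-10150. In 2.6[8]10 HTT-634.486 against NTC called Sv2a, which encodes the most widespread of the SV2 glycoproteins. Sv2a had 406, 451 and 475 CPM with HTT-634.486 and 459, 507 and 546 CPM with NTC (-0.18, SE 0.04, adjusted p = 0.00578), against 2.01% of genes, and the groups overlapped. Without the library with striatal markers there were 5 calls against 4.32% of genes: Sv2a and Syn2 lower, and Syt7, Vamp1 and Unc13b higher. Both treatments were set against the same NTC mice, and their values are not independent of each other.

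In WT mice, HTT-10150 against NTC called Syt6, Unc13c and Syt4 higher in 2.6[8]10, against 3.32% of genes. The log2 changes were 2.20 (SE 0.47, adjusted p = 0.00361), 1.24 (SE 0.34, adjusted p = 0.029) and 0.26 (SE 0.08, adjusted p = 0.0442) by edgeR. With HTT-10150 the median mouse had 5.21 CPM of Syt6, 21.8 CPM of Unc13c and 138 CPM of Syt4, against 4.59, 19.1 and 117 CPM with NTC. Once the library with striatal markers was left out, the changes were 0.24 (adjusted p = 0.7), 0.07 (adjusted p = 0.941) and 0.19 (adjusted p = 0.208), and Unc13b was the call instead (0.25, SE 0.06, adjusted p = 0.00773), against 1.63% of genes. In WT mice of 2[4]6 and 6[4]10, HTT-10150 called 0 members by edgeR, with 3 and 4 at an unadjusted p under 0.05 and 0.0784% and 0.0244% of genes.

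HTT-634.486 against NTC in WT mice called 0 members in each regimen by edgeR, with 1, 8 and 7 at an unadjusted p under 0.05 in 2[4]6, 6[4]10 and 2.6[8]10 and 0.00603%, 0.0244% and 0.713% of genes. DESeq2 called 1 in 2.6[8]10, and its share over all genes is not given here. With the library with striatal markers left out, 3 were called there, Vamp1 and Unc13b higher and Syt17 lower, against 1.99% of genes.

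NTC itself was compared with no treatment. In zQ175 mice 0 members were called by edgeR, with 7, 2 and 3 at an unadjusted p under 0.05 in 2[4]6, 6[4]10 and 2.6[8]10 and 0.0302%, 0% and 1.01% of genes. DESeq2 called 3 members in 2[4]6. Its share over all genes is not given here, and the shares above are those of edgeR. The count in 2.6[8]10 was again 0 without the library, against 1.99% of genes. In WT mice 0 were called, with 0, 5 and 6 at an unadjusted p under 0.05 and 0%, 0% and 0.669% of genes. When the library with striatal markers was left out, Unc13b (-0.24, SE 0.06, adjusted p = 0.00988) and Vamp1 (-0.27, SE 0.06, adjusted p = 0.0152) were called lower in WT NTC mice of 2.6[8]10, against 1.55% of genes. These are the same NTC mice against which Unc13b was called higher with both siRNAs, and Vamp1 with HTT-634.486, once that library was left out.

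No member's siRNA effect was called different between the genotypes. For HTT-10150 there were 9, 2 and 5 members at an unadjusted p under 0.05 in 2[4]6, 6[4]10 and 2.6[8]10, and 0%, 0% and 0.0126% of genes were called by edgeR. For HTT-634.486 there were 3, 1 and 3, and 0%, 0% and 0.00631% of genes. DESeq2 called 0 members in each of the 6. Both counts in 2.6[8]10 were again 0 without the library with striatal markers, against 0.00629% and 0.044% of genes.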

How the data were processed

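PolyA-selected RNA of 192 mouse hippocampi was sequenced, and the authors deposited expected counts per gene, made with RSEM on GRCm38 per the submitters' processing notes. All values were whole, so none was rounded. Columns were matched to mice through the library names in the labels, and every group comes from the labels, which name the mice as separate samples. Names, positions and exon lengths come from GENCODE vM21, and promoter sequences from RefSeq (GRCm38.p6). The members and gene lists were chosen with earlier results of these data known.

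Each regimen was fitted with its 64 libraries: filterByExpr, TMM scaling and the quasi-likelihood test of edgeR 4.0.16 (robust) in R 4.3.3, with 8 groups and sex as terms and Benjamini-Hochberg adjustment over all genes tested. The SE of a log2 change is its size divided by the root of F. Differences between regimens were fitted over all libraries. Alternatives were DESeq2 1.42.0 and its size factors, limma 3.58.1 (voom), no filter, only the groups compared, a replicate block, the number in library names as a random block, the libraries that did not match their labelled sex left out, and the mice of each replicate number left out. After the data were seen, fits without the library with striatal markers and with the log2 summed level of thalamus and habenula markers as covariate were added. The fits were tested on simulated data. Values per mouse are printed for members called in untreated mice of at least 2 regimens, the top 3 per siRNA contrast and per interaction, and the highest of each role. Members that share reads with an opposite-strand gene are uncertain, since strandedness is not given in the sources used here. Depth enters the precision through the counts.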

Additional observations from a re-analysis of the deposited data

Results flagged for a closer look

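In 7 of the 75 gene and group combinations printed mouse by mouse, or 9.33%, the highest or lowest of the 8 mice stood far from the others, with a gap to the nearest mouse, as a share of the whole range, above Dixon's 95% critical value. About 1 in 20 such groups is flagged by chance. In 2[4]6, Snap25 was high in 1 untreated zQ175 male at 1617 CPM and low in 1 untreated WT female at 1539 CPM. Pclo was low in zQ175 male_3 given HTT-634.486, at 165 CPM, and Sv2b was low in zQ175 male_3 given NTC, at 259.5 CPM. The other 3 were all in WT female_1 given HTT-10150 in 2.6[8]10, the library with striatal markers, where Syt6 stood at 154.3 CPM, Unc13c at 248 CPM and Syt4 at 189.2 CPM.

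Tests of a difference between effects gave 4 results. In 2.6[8]10 the genotype effect, zQ175 minus WT, differed between females and males by 0.18 on the log2 scale for Syt13 and by 0.33 for Syt4. These 2 calls are 5.13% of the members, against 5.52% of all genes, and the call of Syt4 was lost without the WT NTC female whose sex-linked transcripts did not match its label (0.30, adjusted p = 0.0592 by edgeR). The effect on Cplx2 differed by -0.19 between 6[4]10 and 2[4]6 and by -0.21 between 2.6[8]10 and 2[4]6.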

How the results depend on the processing

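Of 157 called changes of members, 72 kept their call and direction under every alternative run, and 0 of 1944 refits reversed a direction. Of 550 recomputed counts of members, 66 moved by more than 1.5 times. The labels give groups the same replicate numbers. Deviations of mice of the same sex and number had a mean r of -0.000666, 0.0218 and 0.0298 in 2[4]6, 6[4]10 and 2.6[8]10. Pairs that share neither this label nor the number in the library name had -0.0157, -0.0189 and -0.0135. Such means cannot tell whether the numbers pair mice, and the main fit used no pairing. Libraries that share the number in their name had a mean r of 0.0275, 0.0867 and 0.111, and with that number as a random block (correlation of 0.0509, 0.103 and 0.134) 15 called changes were no longer called, against 12 with limma-voom alone. With the replicate block, 11 members were called in untreated mice of 6[4]10 against 9 without it, and no count moved beyond 1.5 times. TMM and plain CPM differed by at most 3.74%. The causes of the shifts below were not tested.

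With the 16 libraries of both groups fitted alone, which leaves fewer samples for the estimate of spread, HTT-10150 against HTT-634.486 in zQ175 gave 0 members in 2[4]6 and 1 in 2.6[8]10. HTT-10150 against NTC in 2.6[8]10 gave 1 in zQ175 and 0 in WT. HTT-634.486 against NTC gave 5 in zQ175 and 2 in WT in 2.6[8]10, and 0 in zQ175 in 6[4]10. NTC against untreated WT gave 1 in 2.6[8]10. zQ175 against WT gave 0 under HTT-10150 in 2.6[8]10 and 1 under HTT-634.486 in 2[4]6. With no filter, HTT-10150 against HTT-634.486 in zQ175 of 2[4]6 gave 7, and zQ175 against WT gave 5 under NTC in 2[4]6 and in 2.6[8]10 and 0 under HTT-634.486 in 2.6[8]10.

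Other tools moved counts of 2.6[8]10. With limma-voom, HTT-10150 against NTC in WT gave 0, and zQ175 against WT 3 under HTT-10150 and 1 under HTT-634.486. With the library-name number as a block the last pair was again 3 and 1, and HTT-634.486 against NTC in WT gave 1, as with DESeq2. In 2[4]6 DESeq2 gave 3 for NTC against untreated zQ175. Without the libraries that did not match their sex, genotype by sex gave 1 and HTT-10150 against NTC in WT 1. With the thalamus covariate HTT-10150 against NTC in zQ175 gave 1. Without the library with striatal markers, HTT-10150 against NTC gave 1 in WT and 2 in zQ175, HTT-634.486 against NTC 3 in WT and 5 in zQ175, NTC against untreated WT 2, zQ175 against WT 10 untreated and 4 under HTT-634.486, and 6[4]10 minus 2[4]6 gave 3.

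Leaving out the mice of 1 replicate number from every group gave these ranges. For zQ175 against WT they were 3 to 4 untreated, 3 to 10 under NTC, 3 to 4 under HTT-10150 and 0 to 4 under HTT-634.486 in 2.6[8]10, 4 to 5 under NTC, 2 to 5 under HTT-10150 and 1 to 4 under HTT-634.486 in 2[4]6, and 9 to 13 under NTC and 5 to 11 under HTT-634.486 in 6[4]10. HTT-10150 against NTC ranged from 0 to 5 in zQ175 of 2[4]6 and from 1 to 3 in WT of 2.6[8]10, and HTT-10150 against HTT-634.486 from 0 to 15 in zQ175 of 2[4]6. HTT-634.486 against NTC ranged from 0 to 3 in zQ175 and 0 to 1 in WT of 2.6[8]10, and from 0 to 1 in zQ175 of 6[4]10. NTC against untreated ranged from 0 to 3 in zQ175 of 2[4]6 and 0 to 1 in WT of 2.6[8]10. Without a replicate number some calls are lost by construction, since fewer mice enter.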
